A study of Mus musculus with 9 samples.

Results

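Neuropeptide precursor genes encode the proteins from which neurons cut their peptide transmitters and hormones. The 39 genes described here were taken from a fixed list of gene symbols of hypothalamic, striatal, and cortical neuropeptides. The rule uses no measured value, but the list was drawn up with earlier results of these data known. All 39 were found among the 38621 genes of the deposited table. RNA came from the brains of 9 male C57BL/6 mice, with 3 mice in each of 3 groups. Sham mice received saline by injection into the brain according to the methods, although the sample labels call them untreated. ICH mice, the model of intracerebral hemorrhage, received an injection of their own whole blood, and feb mice were gavaged with febuxostat, an inhibitor of xanthine oxidase, on consecutive days before the same injection. The age of the mice, the piece of brain taken for RNA, and the time from injection to sampling were not given in the sources used here, and no feb mouse was without hemorrhage.

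A neuropeptide precursor enters the secretory pathway, is cut by prohormone convertases at paired basic residues, and is stored with granin proteins in dense-core vesicles. Many of these genes are transcribed in small, sharply bounded groups of neurons. Oxt and Avp mark magnocellular neurons of the hypothalamus, Hcrt and Pmch mark neurons of the lateral hypothalamus, Agrp and Pomc mark opposing feeding neurons of the arcuate nucleus, Penk and Tac1 mark striatal projection neurons, and Sst, Vip, and Npy mark cortical interneurons. In RNA from bulk tissue, fewer cells of a type and less RNA per cell cannot be told apart.

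Between 23065757 and 29538009 reads per mouse fell on genes, and levels are given as RPKM (reads per kilobase of exon scaled to sequencing depth). Markers of neurons, astrocytes, oligodendrocytes, and microglia were detected in every mouse. Markers of single brain regions differed between mice of the same group. The summed RPKM of 12 hypothalamus markers ranged from 12.9 to 21.8 in sham, 8.57 to 29.8 in ICH, and 11.6 to 35.3 in feb mice, and that of 11 markers of striatal medium spiny neurons from 80.7 to 473, 220 to 466, and 167 to 354. All 8 choroid plexus markers were called lower in feb than in ICH mice, against 1.05% of all genes. For cortical excitatory neurons, 6 of 7 markers were called higher in ICH than in sham mice, against 1.46% of all genes. The part of tissue content in the results below was not tested.

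The most abundant precursors were Penk, the proenkephalin precursor, with a mean RPKM of 186 ± 83.4 (SD over the 9 mice), and Scg2, a granin, with 172 ± 41.2. Sst (83.3 ± 21.96), Vgf (74.8 ± 7.89), and Npy (59.1 ± 28.6) followed (SD, n = 9 each). The ranges of Penk and Scg2 over the mice overlapped, as did those of Sst, Vgf, and Npy. A mean RPKM over 10 was found for 9 of the 39 genes, and a mean under 1 for 14. Fewer than 10 reads in every mouse were found for 6 genes, which were Kiss1, Nms, Nmu, Ucn, Npw, and Rln3.

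**Figure D1:**
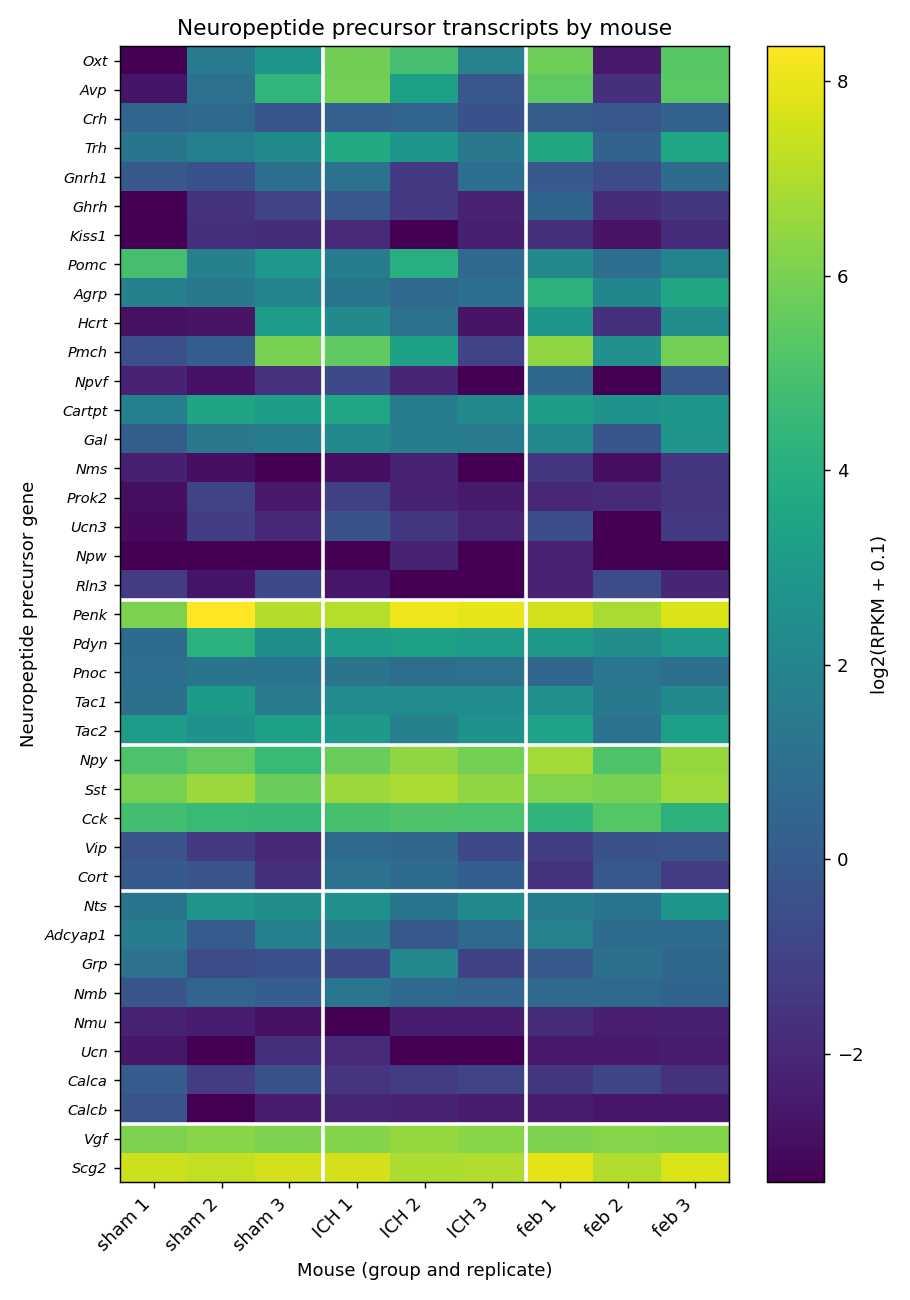
Level of each of the 39 neuropeptide precursor genes (rows) in each of the 9 mice (columns) as log2(RPKM + 0.1), with white lines between the 5 functional groups of genes and the 3 groups of mice. Penk, Scg2, Sst, Vgf, and Npy are bright in every mouse, while Oxt, Avp, Hcrt, and Pmch change from bright to dark among mice of the same group.

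Differences between the groups were tested with limma on log2(RPKM + 0.1) over the 29025 genes that reached an RPKM of 0.1 in 3 or more mice. Of the 39 genes, 37 were tested, and Npw and Ucn did not pass this filter. None of the 37 passed through the values of a single group, and 3 (Rln3, Nmu, and Calcb) passed through 2 groups. A gene was called by the criteria of the study, a fold change over 2 together with an unadjusted p under 0.05. Between ICH and sham mice, 2 of the 37 were called higher (5.41%, against 1.46% of all genes tested) and 1 was called lower (2.70%, against 1.07%). Between feb and ICH mice, 2 were called higher (1.38% of all genes) and 1 lower (1.05% of all genes). Rln3 was the member called lower between ICH and sham, and with Agrp it made up the 2 called higher between feb and ICH. No ICH mouse reached an RPKM of 0.1 of Rln3, so its calls are no evidence of a difference and should not be set against these shares. Between feb and sham mice, 2 were called higher (1.59% of all genes) and 0 lower (0.613% of all genes). After Benjamini-Hochberg adjustment over all genes tested, limma called 0 of the 37 in any comparison, with 4, 3, and 2 at an unadjusted p under 0.05. The share of all genes at an unadjusted p under 0.05 was not counted, so 4, 3, and 2 have no background to be read against. Adjusted p-values under 0.05 were rare throughout, at 0.0241%, 0.00689%, and 0.00345% of all genes in the same order. For the members called lower, 1 gene fewer would put the share below the background. For those called higher it would leave 1 of 37 (2.70%).

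The 2 groups of mice did not overlap in 3 members that were higher in ICH than in sham mice (Npy, Cck, and Cort, 8.11%, against 13.2% of all genes) and 1 that was lower (Agrp, 2.70%, against 6.22%). Between feb and ICH mice, 3 members were higher without overlap (Agrp, Rln3, and Nmu, against 7.04% of all genes) and 3 were lower (Pdyn, Cort, and Calcb, against 10.1%). Rln3, Nmu, and Calcb had no mouse at an RPKM of 0.1 in the lower group. They passed the filter only through the other groups, so their lack of overlap is no evidence of a difference. Nmu had 4, 2, and 2 reads in feb and 0, 2, and 2 in ICH mice. Calcb had 3, 2, and 2 in feb and 4, 4, and 3 in ICH mice. Between feb and sham mice, Agrp alone was higher without overlap (2.70%, against 7.78%) and no member was lower (against 4.9%). The median log2 fold change of the 37 was 0.19 between ICH and sham, where that of all genes was 0.08. It was -0.06 between feb and ICH (all genes -0.01), and 0.23 between feb and sham (all genes 0.05). Each group enters more than 1 of these comparisons, so their fold changes share samples.

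**Figure D2:**
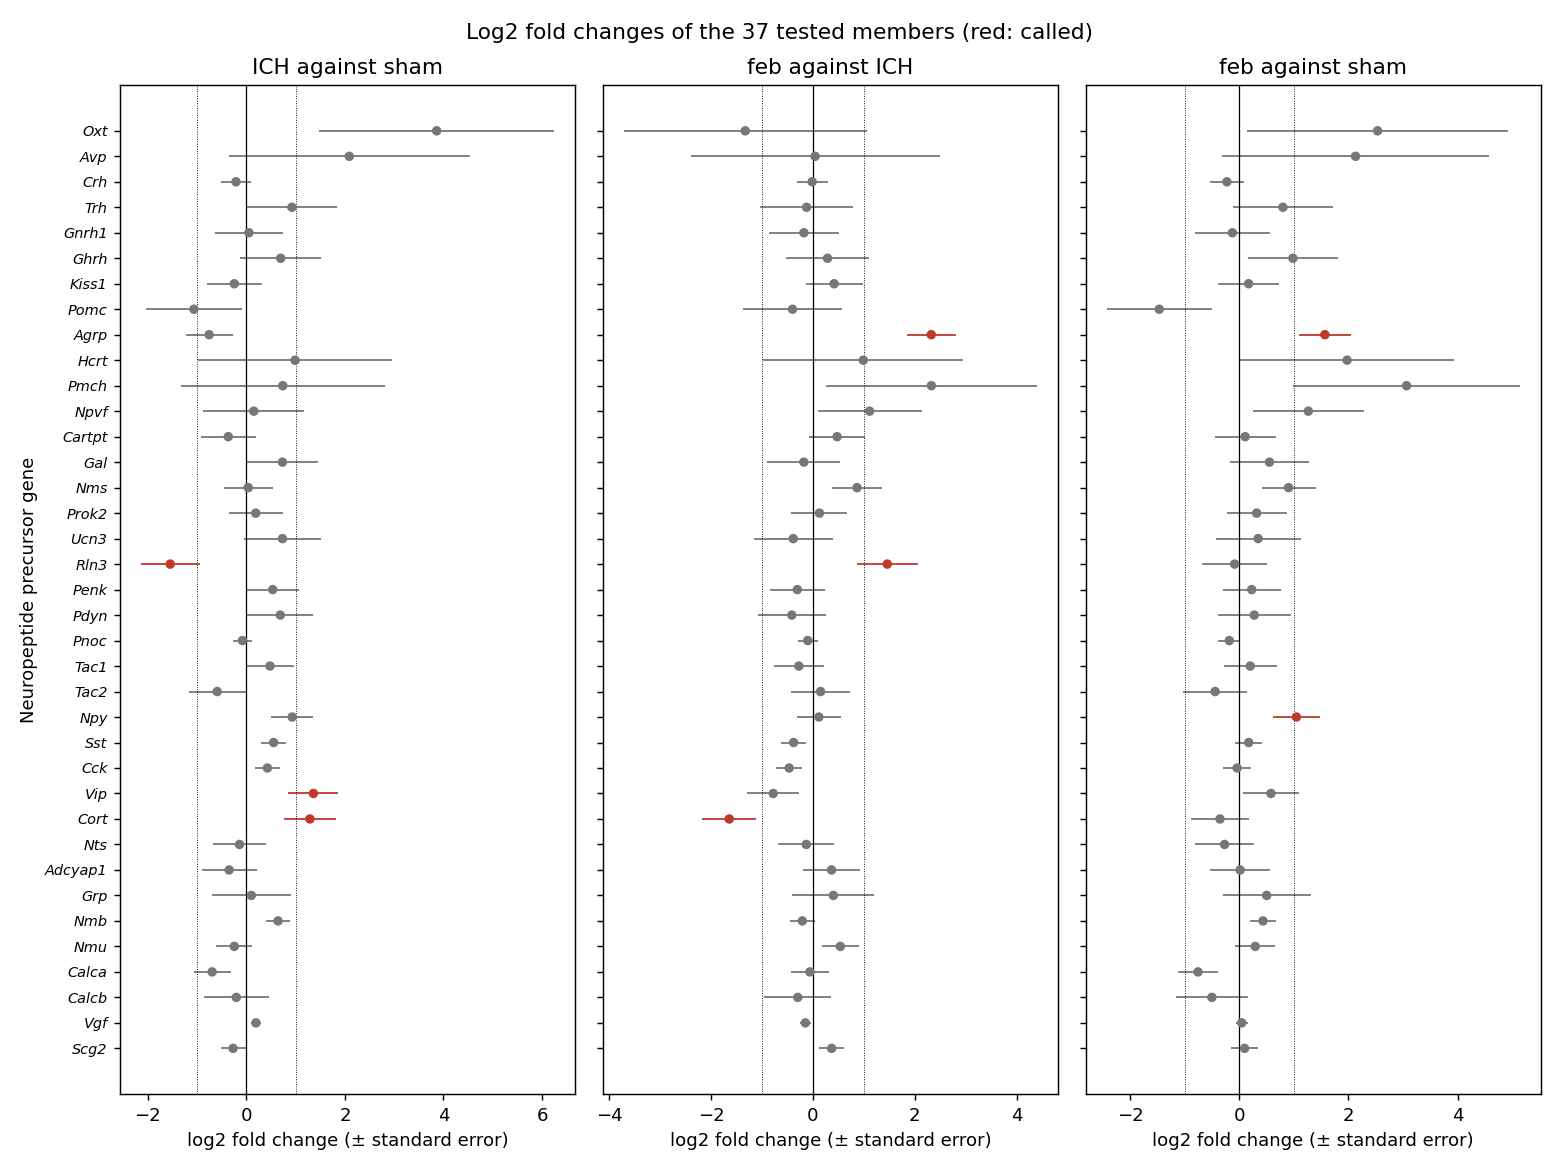
Log2 fold change with its standard error (horizontal axis) for each of the 37 tested members (vertical axis) in 3 panels, ICH against sham, feb against ICH, and feb against sham, with called members in red and dotted lines at a fold change of 2. Oxt, Avp, Hcrt, and Pmch have the longest bars, with standard errors up to 2.45, and Agrp is called in both panels that contain the feb group.

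The peptides of the hypothalamus varied most between mice treated alike. Oxt, the oxytocin precursor (GRCm38 chromosome 2, 130576173 to 130577054), was at an RPKM of 0, 2.64, and 7.09 among sham, 56.1, 29.9, and 3.48 among ICH, and 55.7, 0.0738, and 39.4 among feb mice. The value of feb mouse 2 corresponds to 1 read, and that of feb mouse 1 to 792 reads. Sham mouse 1 had 0 reads of Oxt, and the limit that a count of 0 allows, 3 reads, is worth an RPKM of 0.189 to 0.242 in these libraries. Avp, the vasopressin precursor, lies beside Oxt on the same chromosome (130580620 to 130582554) on the other strand. Its RPKM was 0.0587, 1.92, and 20.7 in sham, 57.8, 9.82, and 0.794 in ICH, and 44.1, 0.206, and 41.5 in feb mice. Both genes were therefore high in ICH mouse 1, feb mouse 1, and feb mouse 3, and both were near 0 in sham mouse 1 and feb mouse 2, so mice of the feb group fell on both sides.

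Pmch, the precursor of melanin-concentrating hormone (chromosome 10, 88091072 to 88092375), had 0.633, 1.02, and 61.4 in sham, 44.8, 10.2, and 0.408 in ICH, and 84.6, 5.82, and 59.1 in feb mice. Hcrt, the hypocretin (orexin) precursor (chromosome 11, 100761069 to 100762931), had 0.0452, 0.0511, and 8.79 in sham, 4.64, 2.03, and 0.0510 in ICH, and 7.11, 0.212, and 5.21 in feb mice. In sham mice 1 and 2 and in ICH mouse 3, Hcrt rested on 1 read each. Sham mouse 3 was high for these peptides of the lateral hypothalamus, while its Oxt lay far below that of the other mice with high Pmch. Trh, the thyrotropin-releasing hormone precursor, ranged from 2.23 to 4.68 in sham, 2.43 to 14.0 in ICH, and 1.20 to 12.8 in feb mice, with its 3 highest values again in ICH mouse 1 and feb mice 1 and 3.

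**Figure D3:**
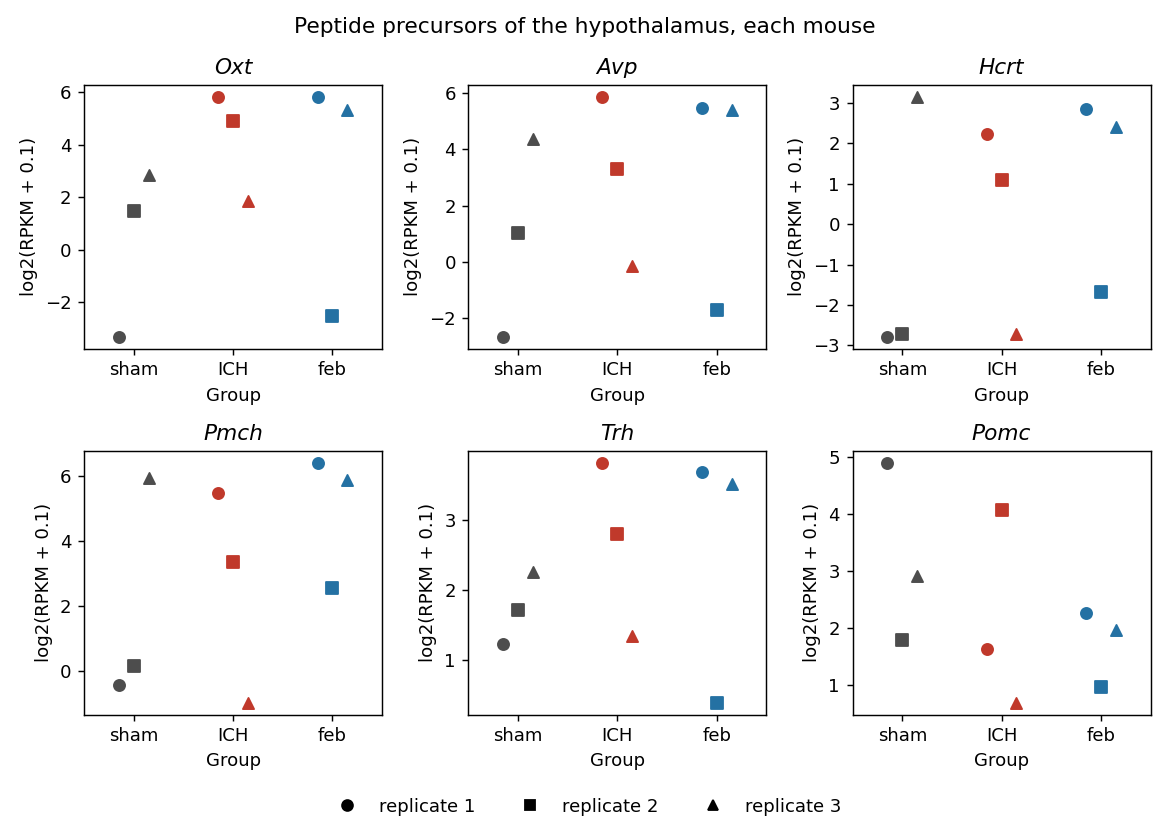
Log2(RPKM + 0.1) (vertical axis) of 6 hypothalamic precursor genes in each mouse of the sham, ICH, and feb groups (horizontal axis), with 1 point per mouse and the marker shape giving the replicate. For Oxt, Avp, and Trh the same 3 mice, ICH mouse 1 and feb mice 1 and 3, are highest, and Pomc is highest in sham mouse 1 and ICH mouse 2.

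Promoter sequences of members that were high and low in the same mice are shown so that they can be compared. They are RefSeq windows on build GRCm38.p6, from 250 bases before the annotated start to 50 bases after it, in the direction of the gene. Such windows matched 30 of the 39 genes, with 33 windows in all. Capitals mark matches on either strand to any of 3 motifs. The cAMP response element was searched as TGACGTCA. The AP-1 site was searched as TGACTCA. The letters of the TATA box were TATAAA, and no member window held overlapping matches.
Oxt (chr2:130575919-130576218, strand +): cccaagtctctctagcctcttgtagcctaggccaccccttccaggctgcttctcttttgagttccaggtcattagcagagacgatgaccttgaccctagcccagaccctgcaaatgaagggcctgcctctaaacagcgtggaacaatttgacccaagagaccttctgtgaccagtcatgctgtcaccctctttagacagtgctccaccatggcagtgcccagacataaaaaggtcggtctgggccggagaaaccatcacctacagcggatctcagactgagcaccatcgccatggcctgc
Avp (chr2:130582539-130582838, strand -): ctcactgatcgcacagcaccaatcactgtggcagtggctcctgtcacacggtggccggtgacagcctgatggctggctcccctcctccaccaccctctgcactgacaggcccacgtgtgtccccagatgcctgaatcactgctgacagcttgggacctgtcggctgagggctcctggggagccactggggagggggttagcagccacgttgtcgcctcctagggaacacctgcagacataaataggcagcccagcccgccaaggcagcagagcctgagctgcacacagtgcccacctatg
Pmch (chr10:88090822-88091121, strand +): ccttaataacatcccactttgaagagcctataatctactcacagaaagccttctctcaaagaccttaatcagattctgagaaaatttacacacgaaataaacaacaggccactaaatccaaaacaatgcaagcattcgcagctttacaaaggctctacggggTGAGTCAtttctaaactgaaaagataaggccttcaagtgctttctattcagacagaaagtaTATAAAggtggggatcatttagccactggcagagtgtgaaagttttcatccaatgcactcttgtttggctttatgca
Hcrt (chr11:100762882-100763181, strand -): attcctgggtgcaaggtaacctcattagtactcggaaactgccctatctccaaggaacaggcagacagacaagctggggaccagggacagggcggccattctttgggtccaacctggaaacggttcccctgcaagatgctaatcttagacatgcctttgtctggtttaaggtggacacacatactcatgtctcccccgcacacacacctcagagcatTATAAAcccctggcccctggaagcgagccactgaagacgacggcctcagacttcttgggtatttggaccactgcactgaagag

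TATAAA lay 27 bases before the start in Pmch and 33 bases before it in Hcrt, and TGACTCA, as its reverse complement, 88 bases before the start in Pmch. None of these letters was found in the windows of Oxt and Avp, which says only that the exact letters are not there. Over all 32851 windows of this length, TATAAA was found in 13.6%, TGACTCA in 5.20%, and TGACGTCA in 1.79%. Among the 33 windows of the members, the shares were 27.3% (9 genes), 15.2% (5 genes), and 12.1% (4 genes). The 4 genes with TGACGTCA were Cartpt, Scg2, Sst, and Ucn.

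Of the other hypothalamic peptides, Gal followed the same mice, and the rest followed them less closely or had few reads. Gal, the galanin precursor, ranged from 1.05 to 2.998 in sham, 2.79 to 4.76 in ICH, and 0.779 to 6.82 in feb mice. It was highest in feb mouse 3 (6.82), ICH mouse 1 (4.76), and feb mouse 1 (4.67). Sham mouse 3 (2.998) came next, just above ICH mouse 2 (2.88), and feb mouse 2 was lowest. Cartpt, which encodes a peptide that lowers feeding, ranged from 3.22 to 11.4, 2.92 to 11.4, and 6.30 to 9.29. Npvf, of the dorsomedial hypothalamus, had 1.44 and 0.854 in feb mice 1 and 3, 0 in feb mouse 2, and at most 0.503 in the other groups, and its 31 reads in feb mouse 1 were its most. Crh, the corticotropin-releasing hormone precursor, varied least of the hypothalamic members tested, with 1.20 ± 0.384 for sham, 1.02 ± 0.334 for ICH, and 0.989 ± 0.187 for feb mice (SD, n = 3 each). Its within-group SD on the log2 scale was 0.40, still above the median of 0.28 for all genes. Gnrh1, which drives the pituitary release of gonadotropins, lay between 0.292 and 1.96 in all mice, at 4 to 27 reads. Ghrh reached 22 reads, Ucn3 23, Prok2 21, Nms 7, and Kiss1 4 in the mouse where each was highest. Npw had 2 reads in each of 2 mice and 0 in the other 7. Of the 741 exon bases of Kiss1, 78.7% are shared with Gm28040 on the same strand, so its few reads cannot be assigned with certainty.

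The mean log2 value of the 19 precursors listed as hypothalamic, Rln3 among them, followed the markers of the hypothalamus, none of which is a member. In the order sham, ICH, feb, the mean of the precursors was -1.09, -0.37, and 0.67, then 1.06, 0.23, and -0.90, then 1.43, -0.96, and 1.15. The mean of the 12 markers was -1.59, -1.12, and -0.72, then -0.05, -1.56, and -1.65, then 0.48, -1.79, and 0.15. The 4 mice with the highest marker mean, feb 1, feb 3, ICH 1, and sham 3, also had the 4 highest precursor means, in the same order. Sim1 and Otp, transcription factors needed for neurosecretory neurons, were at 0.770 and 2.56 in feb mouse 1 and at 0.0646 and 0.193 in feb mouse 2. Of the 12 markers, Nr5a1, Fezf1, Nkx2-4, Hmx2, and Hmx3 were at 0 reads in at least 1 mouse. With this spread, the standard error of the log2 fold change reached 2.45 among the 18 hypothalamic members tested, with a median of 0.75, where the median over all genes was 0.24. Their within-group SD on the log2 scale had a median of 1.07, against 0.28 for all genes, and 11 of the 18 were above the 90th percentile of all genes. None of Oxt, Avp, Hcrt, Pmch, and Trh had an unadjusted p under 0.05 in any comparison with all 9 mice, and differences between groups smaller than this spread were not detectable in 3 mice a group. Without feb mouse 2, which had the lowest marker mean, 7 members in place of 2 were called higher in feb than in sham mice (Gal, Nms, Oxt, Npy, Npvf, Trh, and Agrp), Oxt was also called higher in ICH than in sham mice, and Nms and Npvf higher in feb than in ICH mice. Without sham mouse 3, Pmch and Hcrt were called higher in feb than in sham mice. The feb mice left without feb mouse 2, feb mice 1 and 3, had the highest marker means of all mice. The share of all genes called was not counted in these refits, so their counts have no background to be read against.

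**Figure D4:**
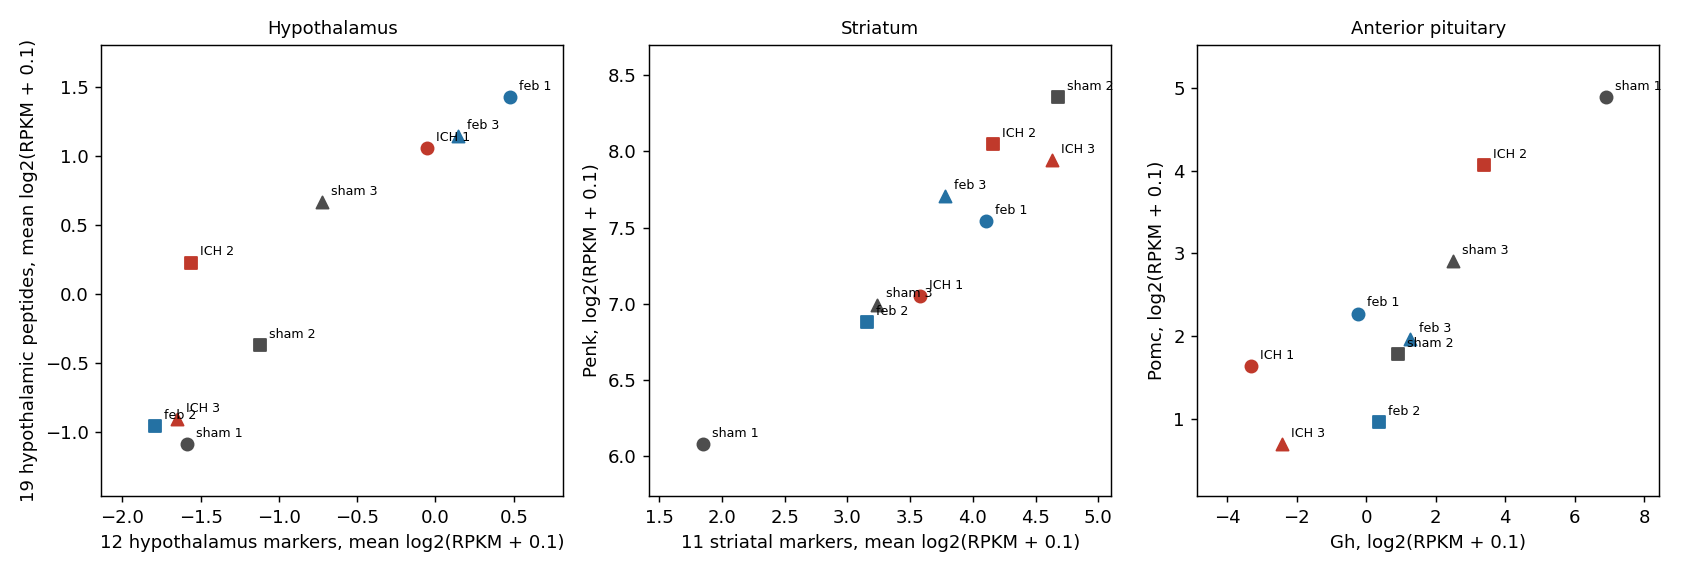
Each point is a mouse, named by group and replicate, on axes of log2(RPKM + 0.1). The mean of 19 hypothalamic precursors is plotted against that of 12 hypothalamus markers (left), Penk against the mean of 11 striatal markers (middle), and Pomc against Gh (right), and sham mouse 1 is lowest in the middle panel and highest in the right one.

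Pomc, the precursor of ACTH, melanocortins, and beta-endorphin, had a pattern of its own. Its RPKM was 29.6, 3.34, and 7.38 in sham, 3.001, 16.6, and 1.52 in ICH, and 4.73, 1.85, and 3.79 in feb mice. The 3 highest values were in sham mouse 1, ICH mouse 2, and sham mouse 3, of which sham mouse 1 and ICH mouse 2 had low hypothalamus markers. Pomc is also abundant in the pituitary, and Gh, the growth hormone gene of that gland, had an RPKM of 119, 1.78, and 5.57 in sham, 0, 10.4, and 0.0886 in ICH, and 0.745, 1.20, and 2.31 in feb mice. The same 3 mice thus had the 3 highest values of Gh. Of the 7 anterior pituitary markers, Gh, Prl (10.3), Cga (3.58), and Pou1f1 (0.479) were highest in sham mouse 1. Lhb and Tshb stayed between 0.563 and 1.21 and between 0.234 and 0.550 in all mice. Tbx19 had at most 9 reads and was highest in feb mouse 1 (0.1065), which is not among the 3 mice highest in Pomc. The summed RPKM of the 7 markers ranged from 3.58 to 135 in sham, 1.14 to 12.9 in ICH, and 2.03 to 4.15 in feb mice, and their part in Pomc was not tested. Pomc was called in no comparison with all 9 mice, and without ICH mouse 2 it was called lower in ICH than in sham mice.

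Agrp, the inhibitor of melanocortin receptors that drives feeding, was called in both comparisons with the feb group. Its RPKM was 18.01, 3.95, and 12.2 in the feb mice, 2.26, 1.501, and 1.81 among ICH mice, and 3.31, 2.53, and 3.76 among sham mice. Every feb mouse was above every mouse of the other groups, and every ICH mouse was below every sham mouse. In reads this is 101 to 483 in feb, 40 to 56 in ICH, and 67 to 107 in sham mice. The log2 fold change was 2.32 between feb and ICH (SE 0.48, limma adjusted p = 0.219) and 1.57 between feb and sham (SE 0.48, adjusted p = 0.565). ICH mouse 1 and feb mouse 3 had mean log2 values of the hypothalamus markers of -0.05 and 0.15, and 2.26 and 12.2 of Agrp. Of these markers, Nr5a1 (0.578 and 0.215) and Fezf1 (1.02 and 0.720) were lower in feb mouse 3. The others were higher there, among them Otp (1.19 and 1.61) and Hmx2 (0.0889 and 0.202). Between the same mice, Nms went from 0.0408 to 0.260 (1 and 6 reads), Npvf from 0.503 to 0.854, and Pmch from 44.8 to 59.1, while Oxt and Avp were higher in ICH mouse 1. Feb mouse 2, with the lowest mean log2 value of the hypothalamus markers of all mice, had 3.95 of Agrp. The part of tissue content in the level of Agrp was not tested. Pomc, its counterpart in the arcuate nucleus, was at 1.85 to 4.73 in feb mice, within the range of the ICH mice (1.52 to 16.6). The upper end of that range is ICH mouse 2, which was also among the mice highest in Gh. Pomc of the arcuate nucleus and of the pituitary cannot be told apart here. The melanocortin receptor genes had low levels in every mouse, between 0.194 and 0.496 for Mc3r and between 0.222 and 0.849 for Mc4r, and neither was called.

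The exons counted for Agrp in the deposited table span chromosome 8 from 105566698 to 105637393, while RefSeq places the gene between 105566695 and 105579845. Of its 1013 exon bases, 84.6% lie within the RefSeq span. For Hcrt this share was 78.0% and for Rln3 74.9%. A further gene on the same strand, Gm5914, covers 114 of the bases (11.3%), and Ctcf covers as many on the other strand. Gm5914 had 8.30, 8.70, and 9.28 in sham, 5.85, 4.25, and 5.54 in ICH, and 9.70, 11.4, and 15.2 in feb mice, the same order of groups as Agrp. If the reads of Gm5914 lay evenly on its exons, the shared bases would account for 0.478 to 1.71 of the RPKM of Agrp. Taken off, this leaves Agrp at 16.9, 2.67, and 10.5 in feb, 1.60, 1.02, and 1.19 in ICH, and 2.38, 1.55, and 2.71 in sham mice, so that feb mouse 2 then lies just below the highest sham mouse. The log2 fold change was then 2.56 between feb and ICH and 1.81 between feb and sham, and both were still called in this alternative, which was chosen after the data were seen. Ctcf varied little, between 14.7 and 17.5.

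**Figure D5:**
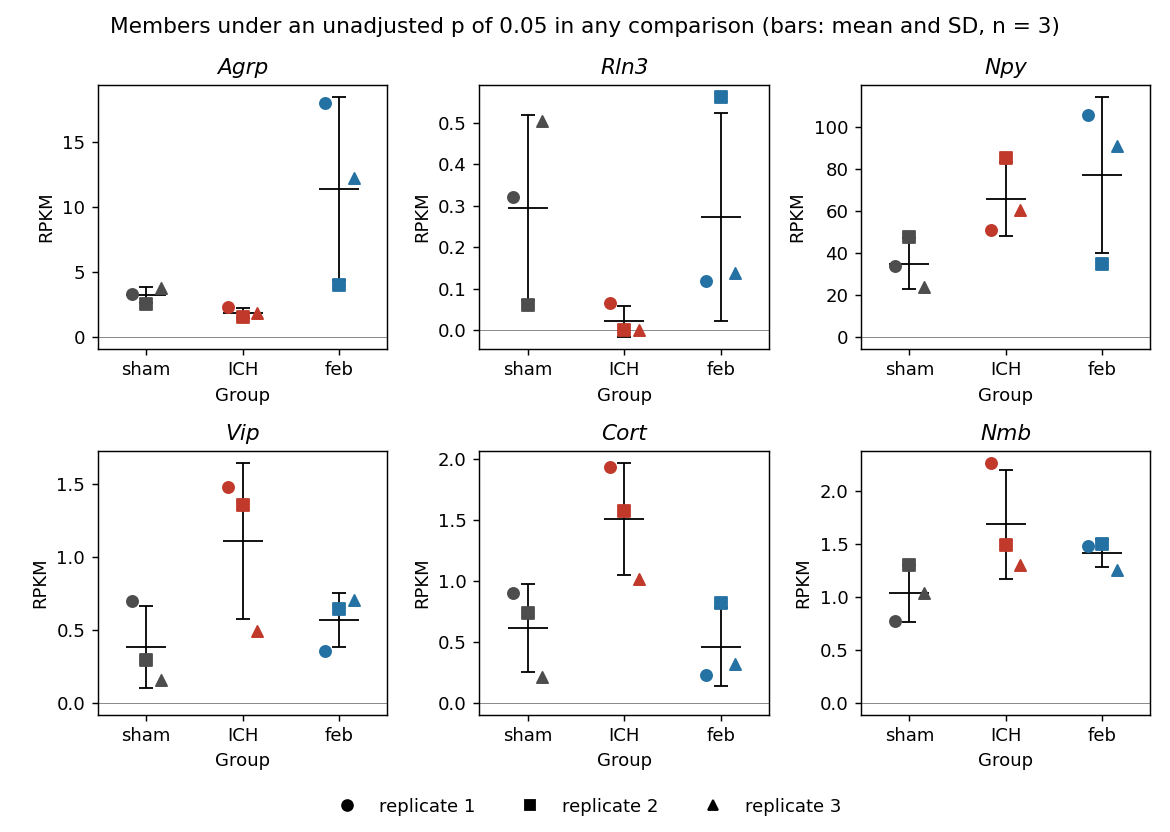
RPKM (vertical axis) of the 6 members with an unadjusted p under 0.05 in any comparison, in each mouse of the sham, ICH, and feb groups (horizontal axis), with horizontal bars for the mean and whiskers for the SD (n = 3). Agrp is above 3.9 in every feb mouse and below that in all others, and Cort is above 1 in every ICH mouse and below that in all others.

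Rln3, the relaxin-3 precursor of the nucleus incertus in the hindbrain, was called lower in ICH mice than in sham mice, and higher again in feb mice, on very few reads. It had 6, 1, and 9 reads in sham, 1, 0, and 0 in ICH, and 2, 9, and 2 in feb mice, which is an RPKM of at most 0.562. No ICH mouse reached the RPKM of 0.1 of the filter. Rln3 was therefore tested only through the groups where it was higher, and its calls cannot count as evidence of a difference. The log2 fold change was -1.54 between ICH and sham (SE 0.59, limma adjusted p = 0.383) and 1.46 between feb and ICH (SE 0.59, adjusted p = 0.424). From the pooled reads, 16 against 1, the level in sham was 14.7 times that in ICH mice, with an exact 95% interval of 2.28 to 616. For feb against ICH, with 13 against 1, it was 13.4 times (2.01 to 569). These intervals cover counting error only and not the spread between mice. The call between ICH and sham was lost without sham mouse 1 (log2 fold change -1.40) or 3 (-1.14) or ICH mouse 2 or 3 (-1.42 each), and that between feb and ICH without ICH mouse 2 or 3 (1.34 each) or feb mouse 2 (0.95). The receptor of relaxin-3, Rxfp3, lay between 0.591 and 1.004 in all mice and was not called.

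Among peptides of cortical and hippocampal interneurons, Vip and Cort were called higher in ICH than in sham mice. Cort, the cortistatin precursor (chromosome 4, 149125034 to 149126763), had 0.900, 0.735, and 0.210 in sham, 1.93, 1.57, and 1.02 in ICH, and 0.223, 0.819, and 0.320 in feb mice. All ICH mice were above all others, on 18 to 32 reads. The log2 fold change was 1.29 between ICH and sham (SE 0.53, limma adjusted p = 0.390) and -1.64 between feb and ICH (SE 0.53, adjusted p = 0.344). Vip, the vasoactive intestinal peptide precursor (chromosome 10, 5639218 to 5647617), had 0.697, 0.292, and 0.157 in sham, 1.48, 1.35, and 0.494 in ICH, and 0.355, 0.640, and 0.701 in feb mice. ICH mouse 3 lay within the range of the sham mice. The log2 fold change between ICH and sham was 1.36 (SE 0.51, adjusted p = 0.381). The call of Cort between ICH and sham was lost without sham mouse 3 (log2 fold change 0.77), ICH mouse 1 (1.10), or ICH mouse 2 (1.24), and its call between feb and ICH was lost without feb mouse 1 (-1.33). The call of Vip was lost without sham mouse 2 (1.29), sham mouse 3 (0.99), ICH mouse 1 (1.11), or ICH mouse 2 (1.16).

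Npy, the neuropeptide Y precursor (chromosome 6, 49822710 to 49829507), had 33.6, 47.5, and 23.4 in sham, 50.9, 85.0, and 60.3 in ICH, and 105, 34.9, and 90.8 in feb mice. It was above all sham mice in every ICH mouse and in feb mice 1 and 3, while feb mouse 2 lay among the sham mice. Npy was called higher in feb than in sham mice, by 1.05 on the log2 scale (SE 0.43, limma adjusted p = 0.580). That value is close to the fold change limit, and the call was lost in 9 of 20 alternatives, among them without sham mouse 1 (1.05) or 3 (0.79), ICH mouse 3 (1.05), and feb mouse 1 (0.75) or 3 (0.86). Npy is made in cortical interneurons and in the Agrp neurons of the arcuate nucleus, and the 2 sources cannot be told apart here.

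Sst, the somatostatin precursor, had 62.2, 96.2, and 52.9 in sham, 97.6, 119, and 86.1 in ICH, and 71.3, 63.7, and 100.5 in feb mice, and was not called. Cck, which is made in excitatory neurons and interneurons of the cortex, averaged 24.9 ± 3.15 for sham, 33.4 ± 2.34 for ICH, and 25.6 ± 11.3 for feb mice (SD, n = 3 each). Its feb mice, at 20.2, 38.6, and 17.97, lay on both sides of the ICH mice. The mean log2 value of these 5 peptides was 3.11, 3.02, and 2.23 in sham, 3.78, 3.95, and 3.36 in ICH, and 2.89, 3.17, and 3.15 in feb mice. The cortical excitatory markers moved beside them, with a mean of 2.24, 1.17, and 0.88 in sham, 2.80, 3.49, and 2.59 in ICH, and 2.07, 2.70, and 2.56 in feb mice. For both lists the lowest ICH mouse exceeded the highest sham mouse. The markers of GABA neurons had means of 2.46 to 3.33 in sham, 2.89 to 3.11 in ICH, and 2.83 to 3.18 in feb mice, and none of those 10 genes was called in any comparison.

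The promoter windows of Vip and Sst are shown as examples of interneuron peptides, printed as above. The exact letters TGACGTCA were found in Sst and not in Vip. The window of Vip holds TGACGTCT, which differs in its last letter, and such near matches were not searched.
Vip (chr10:5638968-5639267, strand +): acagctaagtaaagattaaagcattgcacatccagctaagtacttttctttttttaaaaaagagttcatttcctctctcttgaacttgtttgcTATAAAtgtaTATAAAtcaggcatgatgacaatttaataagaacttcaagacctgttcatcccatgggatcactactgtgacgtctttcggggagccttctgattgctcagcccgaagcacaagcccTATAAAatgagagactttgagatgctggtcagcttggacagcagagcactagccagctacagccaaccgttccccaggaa
Sst (chr16:23890795-23891094, strand -): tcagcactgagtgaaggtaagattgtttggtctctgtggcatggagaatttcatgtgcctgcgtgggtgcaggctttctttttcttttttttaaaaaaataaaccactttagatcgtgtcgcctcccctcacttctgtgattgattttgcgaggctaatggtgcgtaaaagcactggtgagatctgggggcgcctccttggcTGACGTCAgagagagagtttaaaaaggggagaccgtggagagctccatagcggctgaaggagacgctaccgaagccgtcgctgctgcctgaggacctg
In Sst, TGACGTCA began 48 bases before the start, while Vip held TATAAA 3 times, the nearest 30 bases before the start. Between ICH and sham, the log2 fold change of Sst was 0.55 (SE 0.25, limma adjusted p = 0.408), and the mice of the groups overlapped.

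The opioid and tachykinin precursors of the striatum were called in no comparison. Penk, the source of the enkephalins (chromosome 4, 4133531 to 4138819), had 67.4, 328, and 127 in sham, 132, 265, and 246 in ICH, and 186, 117, and 209 in feb mice. The sham mice held both the lowest and the highest value of all 9. Pdyn, the dynorphin precursor, had 1.68, 17.5, and 5.59 in sham, 8.77, 9.72, and 8.48 in ICH, and 7.86, 5.17, and 7.43 in feb mice. Tac1, the precursor of substance P, had 1.90, 8.07, and 2.83 in sham, 4.86, 4.96, and 5.09 in ICH, and 5.88, 2.51, and 4.61 in feb mice. Only 40.0% of the 3399 exon bases counted for Tac1 lie within its RefSeq span, so its level depends on the gene model. All 3 genes were lowest in sham mouse 1 and highest in sham mouse 2. The mean log2 value of the 11 striatal markers was likewise lowest in sham mouse 1 (1.85) and highest in sham mouse 2 (4.68), with 3.24 in sham mouse 3. Without sham mouse 2, Pdyn, Penk, Tac1, Cort, and Npy were called higher in ICH than in sham mice, 5 members in place of 2, and Calca and Rln3 lower. The share of all genes called was not counted in this refit. Tac2, the neurokinin B precursor, ranged from 6.28 to 9.95 in sham, 3.27 to 7.82 in ICH, and 2.11 to 10.5 in feb mice. Pnoc, the nociceptin precursor, was steady, with 2.07 ± 0.273, 1.95 ± 0.181, and 1.85 ± 0.484 (SD, n = 3 each).

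The 2 granin members were abundant, with a within-group SD on the log2 scale of 0.13 for Vgf and 0.36 for Scg2. Vgf, which is induced by neurotrophins, had 65.9, 78.2, and 67.6 in sham, 73.2, 92.5, and 77.3 in ICH, and 69.3, 75.7, and 73.3 in feb mice. Scg2, the secretogranin II precursor, had 179.7, 155, and 189 in sham, 197, 122, and 125 in ICH, and 239, 130.1, and 208 in feb mice. The groups overlapped in both genes, and neither was called. The activity genes, among which Egr1, Egr2, Arc, and Nr4a1 were called higher in ICH than in sham mice, had a mean log2 value of 1.29 to 1.71 in sham, 1.81 to 2.45 in ICH, and 1.55 to 1.66 in feb mice.

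The remaining peptides had a mean RPKM under 5. Nts, the neurotensin precursor, ranged from 2.25 to 6.80 in sham, 2.23 to 5.77 in ICH, and 2.22 to 7.04 in feb mice. Adcyap1, the PACAP precursor, ranged from 0.953 to 3.24, 0.892 to 3.01, and 1.60 to 3.55. Grp, the gastrin-releasing peptide precursor, was 4.17 in ICH mouse 2, while the other ICH mice had 0.501 and 0.397, and it ranged from 0.542 to 1.98 in sham and 0.856 to 1.91 in feb mice. Calca, which encodes calcitonin and CGRP, had 0.945, 0.318, and 0.634 in sham, 0.243 to 0.431 in ICH, and 0.232 to 0.447 in feb mice, and Calcb reached 26 reads in sham mouse 1 and at most 4 in any other mouse. Nmu had at most 4 reads and Ucn at most 3. Nmb, the neuromedin B precursor, had 0.768, 1.30, and 1.03 in sham, 2.27, 1.49, and 1.30 in ICH, and 1.48, 1.499, and 1.26 in feb mice. Its log2 fold change between ICH and sham was 0.64 (SE 0.24, limma adjusted p = 0.382), below the fold change limit. However, Sec11a covers 20.6% of the exon bases of Nmb on the same strand, and its reads, if spread evenly, would account for 1.02 to 1.22 of the RPKM of Nmb.

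The genes that process, degrade, or receive these peptides were counted from lists of other genes. Of 17 genes for processing and storage, among them the convertases Pcsk1 and Pcsk2, carboxypeptidase Cpe, and the amidating enzyme Pam, 0 were called in any comparison, with 4, 4, and 1 at an unadjusted p under 0.05. Of 10 peptidases, 0 were called, with 1 at an unadjusted p under 0.05 in each comparison. Counts at an unadjusted p under 0.05, here and for the receptors below, have no share of all genes beside them. Of 52 receptor genes found, 47 were tested. Among these, 2 were called higher in ICH than in sham (4.3%, against 1.46% of all genes). Called lower in feb than in ICH was 1 (2.1%, against 1.05% of all genes), and 0 were called between feb and sham. The median log2 fold change of the receptors was 0.17 between ICH and sham, and -0.0019 and -0.0037 in the comparisons with the feb group.

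Vipr1, a receptor of VIP and PACAP, was called higher in ICH than in sham and lower in feb than in ICH mice. Its RPKM was 1.40, 2.98, and 0.957 in sham, 3.81, 5.16, and 4.17 in ICH, and 1.44, 2.01, and 2.27 in feb mice, and all ICH mice were above all others. The log2 fold change was 1.39 between ICH and sham (SE 0.36, limma adjusted p = 0.334) and -1.17 between feb and ICH (SE 0.36, adjusted p = 0.326). Nmbr, the receptor of neuromedin B, had 0.325, 0.190, and 0.353 in sham and 1.37, 0.459, and 0.450 in ICH mice, a log2 fold change of 1.005 (SE 0.40, adjusted p = 0.388). It lay between 0.336 and 0.456 in feb mice. Among receptors of somatostatin and cortistatin, singled out after their values were seen, Sstr2, Sstr3, and Sstr4 had an unadjusted p under 0.05 between ICH and sham, with log2 fold changes of 0.65, 0.72, and 0.77, and none reached the fold change limit. Sstr1 (0.24) and Sstr5 (-0.26) did not have such a p. In this comparison, 10 of the 47 receptors tested had an unadjusted limma p under 0.05. Of these, Ntsr2 (-0.83), Tacr3 (-0.52), and Nmur1 (-0.93) were lower in ICH mice.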

How the data were processed

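RNA was depleted of rRNA, and a stranded kit with UMIs was used. The authors trimmed reads with Trimmomatic (version 0.36), merged reads with the same UMI into consensus reads, mapped them to GRCm38, ran featureCounts (Subread 1.5.1) over exons, and deposited RPKM values, 1 column per mouse. The annotation release and the use of strand in counting were not given in the sources used here. Between 23065757 and 29538009 reads per mouse were recovered from the steps of the values (100% whole multiples of the value of 1 read within 0.01 read). Within each group, no library was a copy of another by a chi-square of the reads (at least 12.7 per gene for any pair). Libraries of different groups were not compared in this way.

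Samples were grouped by their titles. The authors used edgeR, which needs counts, so limma (version 3.58.1, R 4.3.3, eBayes with a trend) was run on log2(RPKM + 0.1), all 9 mice in the same fit. On this scale the change of weakly expressed genes comes out too small. Benjamini-Hochberg adjustment covered all 29025 genes. An exact permutation test of 3 mice against 3 cannot go below 0.1 (two-sided). The fit was tested on simulated data, with the same spread between mice set for every gene and no change in genes with few reads. That test does not bear on members with few reads or a wide spread between mice. Tables were made with Python 3.11.15 and pandas 2.3.3. The members and gene lists were chosen with earlier results of these data known. Every member is named, and a fold change is given for each with an unadjusted p under 0.05. Called receptor genes are named, and calls in the marker lists are given as counts or examples. Promoters came from RefSeq on GRCm38.p6. Galr3 was not found in the table.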

Additional observations from a re-analysis of the deposited data

How the results depend on the processing

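With 3 mice a group, the number of members called changed with most choices. The calls of 2 members higher and 1 lower between ICH and sham became 0 and 0 with a pseudocount of 1, 1 and 0 with an RPKM of at least 1 in 3 samples, and 1 higher with quantile normalization. The 2 higher and 1 lower between feb and ICH became 1 and 0 with a pseudocount of 1, and 1 higher with an RPKM of at least 1. The 2 higher between feb and sham became 1 with equal medians, with eBayes without a trend, and with only the 2 groups compared in the fit. With calls at an adjusted p under 0.05, all were 0. Leaving out each mouse in turn gave 0 to 5 higher and 0 to 2 lower between ICH and sham, 1 to 3 and 0 to 2 between feb and ICH, and 1 to 7 and 0 to 1 between feb and sham. The shares of all genes called were not counted when a mouse was left out. Agrp was called in all 20 alternatives in both of its comparisons, with log2 fold changes of 1.87 to 2.95 and 1.12 to 2.20. Cort was called in 15 of 20 between ICH and sham and in 18 of 20 between feb and ICH, Vip in 14 of 19, and Rln3 in 13 of 19 and 14 of 19. No called member changed direction. Over all genes, the calls between ICH and sham were 423 higher and 312 lower, 327 and 422 with equal medians, 317 and 406 with quantile normalization, and those between feb and sham 461 and 178, 333 and 229, and 295 and 245. Less the even share of its overlapping gene, Nmb had a log2 fold change of 1.80 between ICH and sham, but this share exceeded its whole RPKM in sham mice 1 and 3, which were set to 0, so neither this value nor the call it gives can be read. Same-numbered mice of different groups did not deviate together (correlations of -0.127 to 0.019 over 9 pairs), while sham mouse 2 and feb mouse 3 reached 0.166. The main fit did not use the numbers, but so few pairs cannot exclude that they stand for a batch. With the replicate block, the counts were 0 lower between ICH and sham, 1 higher between feb and ICH, and 1 higher between feb and sham. Members with few reads are limited by depth, and those of the hypothalamus by the spread between mice.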

Other observations

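Parpbp, a DNA repair gene, covers 435 of the 749 exon bases of Pmch (58.1%) on the other strand, and it was looked at because of this overlap. Its RPKM was 0.207, 0.415, and 9.90 in sham, 8.01, 2.02, and 0.244 in ICH, and 14.6, 1.06, and 10.2 in feb mice. The 4 mice highest in Pmch (feb 1, sham 3, feb 3, and ICH 1) were also the 4 highest in Parpbp. In reads, Parpbp had 22 to 1386 per mouse and Pmch 8 to 1678, and in feb mouse 1 the numbers were 1386 and 1678. Whether these reads come from Parpbp or from Pmch cannot be told apart in the deposited values.

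Of the 37 members tested, feb mouse 1 was the highest mouse for 10 and ICH mouse 1 for 9, while sham mouse 1 was the lowest for 11. Npy2r, a receptor of neuropeptide Y that was picked after its values were seen, had 5.93 in ICH mouse 2 and 3.92 in feb mouse 3, against 0.671 to 2.37 in the other mice.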
